A study of Mus musculus with 3 samples.

Results

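*Folr2*, *Lyve1*, *Timd4*, *Cd163*, *Mrc1*, *Cd209f*, *Cbr2*, *Stab1*, *Marco* and *Msr1* are 10 of the 32285 genes counted in single cells of the mouse diaphragm, the main muscle of inspiration. They were chosen by symbol as genes that mark tissue-resident macrophages, and each symbol matched 1 gene. They were read mainly in macrophages, defined as cells with at least 5 UMIs of *C1qa*, *C1qb* and *C1qc* together (a UMI marks 1 captured mRNA molecule). That rule took 956 of 12275 cells. The costal diaphragm of male mice was digested, dead cells were sorted out with DAPI, and the rest were captured with a 10x Genomics 3′ kit. The group WT CD was C57BL/6J mice on control diet, WT HFD was C57BL/6J mice on a high-fat diet with 45% of calories from lipid, and KO HFD was B6.129S2-Thbs1tm1Hyn/J mice, which lack thrombospondin-1 in the whole body, on the same high-fat diet. At 2 months of age the high-fat groups changed from chow to that diet, while WT CD mice stayed on chow, their control diet. Each diet was then given for 6 months. The mice of a group, 2 by the study's methods, were pooled into 1 library, and cells cannot be traced to a mouse. Each group was therefore 1 sample, no difference between groups had a replicate check, and no test was made. By the study's methods, the supplier keeps the KO line on the C57BL/6J background. All intervals are at 95% and cover counting error only.

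Resident macrophages live in most tissues, where they clear dying cells, worn matrix and modified lipids by means of surface receptors. Many of these are scavenger receptors, which bind a wide range of polyanionic or modified ligands and carry them to the lysosome. Others are lectins, which bind sugars. Stabilin-1 and LYVE-1 are also known from lymphatic and sinusoidal endothelium, so their genes alone do not tell a macrophage from such an endothelial cell. In muscle, resident macrophages sit in the connective tissue between fibers, and a separate type lives in the fluid of the adjoining body cavities.

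The 10 genes have these roles. Among lectins, *Mrc1* encodes the mannose receptor CD206 (chr2:14229392-14332057, plus strand, GRCm38) and *Cd209f* a member of the CD209 C-type lectin family (chr8:4102787-4105835, minus strand). Among scavenger receptors, *Cd163* encodes the receptor for haptoglobin-hemoglobin complexes (chr6:124304656-124330527, plus strand), *Stab1* encodes stabilin-1 (chr14:31139013-31168641, minus strand), and *Msr1* (chr8:39581685-39642673, minus strand) and *Marco* (chr1:120474538-120505024, minus strand) encode class A receptors. *Timd4* encodes TIM-4, which binds phosphatidylserine on dying cells (chr11:46810800-46844332, plus strand). *Folr2* encodes folate receptor beta (chr7:101839988-101857194, minus strand) and *Lyve1* a hyaluronan receptor (chr7:110850607-110863239, minus strand). *Cbr2* encodes a carbonyl reductase, an enzyme and not a receptor, that is often read beside them (chr11:120729489-120732114, minus strand). All are protein-coding in GENCODE, and 9 of the 10 have no other annotated gene over them on the same strand. The exception is *Mrc1*, which holds the microRNA gene *Mir511* in its span.

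Promoters in RefSeq (GRCm38.p6) were found for 8 of the 10 genes and not for *Lyve1* or *Msr1*. The 250 bases before the annotated start of *Mrc1* (found in most macrophages), *Timd4* (found in few) and *Stab1* (shared with lymphatic cells) are shown 5′ to 3′ because these genes differed in where they were found. Capitals mark GAGGAA, the core letters bound by the myeloid factor PU.1, and TGCTGA, a half-site of the MAF factors, on either strand. The *Mrc1* window is chr2:14229164-14229413 (plus strand), the *Timd4* window chr11:46810549-46810798 (plus strand) and the *Stab1* window chr14:31168642-31168891 (minus strand).
Mrc1: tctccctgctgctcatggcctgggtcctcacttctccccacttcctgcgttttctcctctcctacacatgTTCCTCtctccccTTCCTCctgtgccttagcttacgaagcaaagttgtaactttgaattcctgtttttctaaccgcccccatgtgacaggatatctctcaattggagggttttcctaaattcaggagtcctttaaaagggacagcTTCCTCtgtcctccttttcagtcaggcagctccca
Timd4: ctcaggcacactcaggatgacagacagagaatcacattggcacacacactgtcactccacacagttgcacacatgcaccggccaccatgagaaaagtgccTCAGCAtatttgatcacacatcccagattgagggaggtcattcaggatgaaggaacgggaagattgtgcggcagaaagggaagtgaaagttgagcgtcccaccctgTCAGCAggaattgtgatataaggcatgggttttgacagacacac
Stab1: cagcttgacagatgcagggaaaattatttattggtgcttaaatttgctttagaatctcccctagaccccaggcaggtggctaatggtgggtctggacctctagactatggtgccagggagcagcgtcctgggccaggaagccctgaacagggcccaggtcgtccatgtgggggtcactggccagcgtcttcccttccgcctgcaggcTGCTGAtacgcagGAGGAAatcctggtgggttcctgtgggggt
The *Mrc1* window held 3 matches to GAGGAA and 0 to TGCTGA. The *Timd4* window held 0 matches to GAGGAA and 2 to TGCTGA. The *Stab1* window held 1 match to each. The 8 genes had 9 windows, 2 of them for *Folr2*. Of these windows, 4 held GAGGAA (4 genes) and 4 held TGCTGA (3 genes). Over all genes, 23.3% and 16.1% of 32817 windows of the same length held them. TGANTCA, the AP-1 site, was in 2 of the 9 windows (1 each of *Cd209f* and *Folr2*) and in 6.75% of all windows. These letters are matches only, and no binding was measured.

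The WT CD library held 34312860 UMIs in 4132 cells, the WT HFD library 31967976 in 3774 cells and the KO HFD library 36478779 in 4369 cells. Macrophages were 194 cells (4.70%, interval 4.07 to 5.38%) in WT CD, 395 (10.5%, 9.51 to 11.5%) in WT HFD and 367 (8.40%, 7.59 to 9.26%) in KO HFD. Their median depth was 9460, 9336 and 8596 UMIs per cell, and their summed UMIs were 2246927, 4224289 and 4351718. No macrophage barcode was shared between libraries. The shares of macrophages depend on the C1q rule. Clusters named as macrophages from fixed markers held 236, 416 and 451 cells in WT CD, WT HFD and KO HFD. Of these, 26.7%, 11.1% and 23.1% had under 5 C1q UMIs and were left out.

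*Thbs1*, the gene disrupted in the KO, did not separate the labels. Over all cells it measured 136 CPM (a gene's UMIs over the UMIs of all genes in the same cells, in ppm) in WT CD, 202 CPM in WT HFD and 163 CPM in KO HFD. In macrophages it measured 97.9, 358 and 79.7 CPM. The reads come from the 3′ end of the transcript, so they say nothing about a disruption elsewhere in the gene, and the genotype of that library was not checked by these counts. It is called the library labelled KO HFD wherever a direction rests on it.

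The C1q rule took cells with the defining markers of macrophages. *Csf1r*, the receptor for the macrophage growth factor, was found in 92.3%, 92.7% and 95.1% of them in WT CD, WT HFD and the library labelled KO HFD. *Lyz2*, a myeloid lysozyme, was found in 100% in each library. Of the 956 cells, 890 lay in clusters named as macrophages from fixed markers, 29 in a cycling-like and 23 in a B-like cluster. Markers of other cell types were present. Summed over 5 FAP (fibro-adipogenic progenitor) markers, they measured 598, 531 and 303 CPM in the 3 libraries, most of it *Dcn*. The 4 B cell markers summed to 162, 94.0 and 37.5 CPM, the 5 lymphatic markers to 46.3, 23.0 and 41.6 CPM, and the 3 satellite cell markers to 5.79, 7.34 and 9.19 CPM. The 3 mesothelial markers summed to at most 13.4 CPM in WT CD and 0 in the library labelled KO HFD. With cells holding 2 or more UMIs of these markers left out, *Cd163* (log2 ratio 0.48) and *Stab1* (0.49) fell short of the 1.5-fold diet difference given later, and the direction for *Marco* turned.

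At the threshold itself, the 36 cells with 5 to 7 C1q UMIs measured 12.1 CPM for *Folr2*, 0 for *Lyve1* and 236 CPM for *Mrc1*. The 27 cells with 3 or 4 C1q UMIs, just outside the rule, measured 7.90, 0 and 229 CPM. The 920 cells with 8 or more measured 267, 174 and 499 CPM.

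*Folr2*, *Cd209f* and *Cbr2* were found almost wholly in macrophages. Over the 3 libraries, macrophages held 99.2% of all *Folr2* UMIs, 99.1% of *Cd209f* UMIs and 97.5% of *Cbr2* UMIs. *Marco* UMIs were all in macrophages, but there were 55 of them in 7 cells. Macrophages held 91.9% of *Msr1* UMIs, 85.3% of *Cd163*, 81.3% of *Mrc1* and 80.1% of *Timd4*. They held 43.8% of *Stab1* UMIs and 35.1% of *Lyve1* UMIs, while lymphatic-like cells held 44.3% and 62.1%. FAP-like cells, the most numerous class, served as the background of free RNA. Over their 6659 cells (median 8608 UMIs), the share with a UMI was 0.0901% for *Folr2*, 0.270% for *Mrc1* and 0.811% for *Lyve1*, against 47.6%, 83.5% and 33.2% in macrophages (median 9177.5 UMIs in all).

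**Figure D1:**
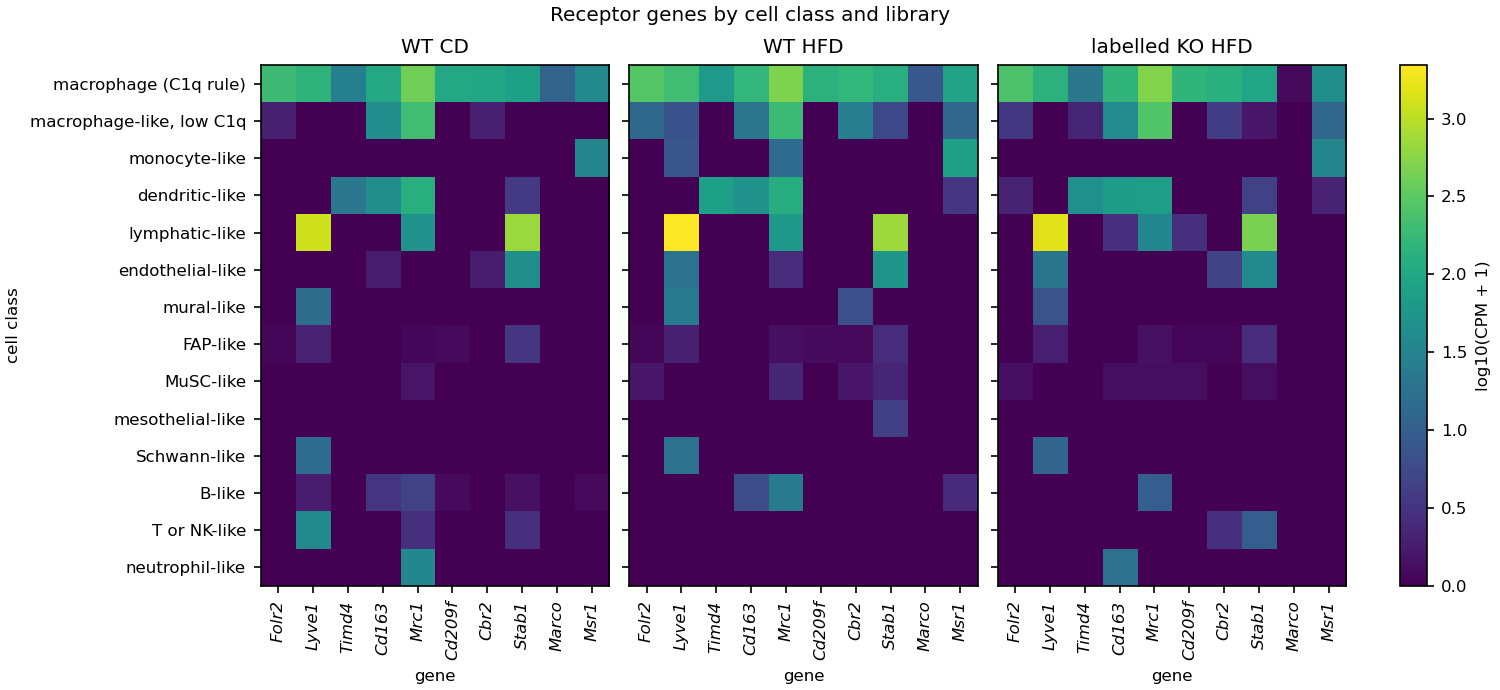
Level of each gene (columns) in each cell class (rows) in the 3 libraries, as log10(CPM + 1) of summed UMIs. The macrophage row is filled across all genes but *Marco*, while *Lyve1* and *Stab1* are brightest in the lymphatic-like row, where *Lyve1* reaches 2183 CPM in WT HFD.

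*Lyve1* and *Stab1* had their highest levels per class in lymphatic-like cells. Of *Stab1* UMIs, lymphatic-like cells held 49.1%, 48.5% and 34.0% in WT CD, WT HFD and the library labelled KO HFD, and macrophages 31.6%, 42.5% and 54.9%. *Lyve1* measured 1270 CPM in the 66 lymphatic-like cells of WT CD, 2183 CPM in the 128 of WT HFD and 1563 CPM in the 80 of the library labelled KO HFD. All 3 values lay above the highest macrophage value of 206 CPM. *Stab1* measured 693, 702 and 471 CPM there, against at most 124 CPM in macrophages. *Mrc1* measured at most 60.1 CPM, far below its macrophage level. *Lyve1* and *Stab1* were found in the same cell in 59.1%, 74.2% and 66.2% of lymphatic-like cells. The ratio of *Lyve1* in WT HFD over WT CD was 1.72 (1.56 to 1.90) in these cells, while that of *Stab1* was 1.01 (0.875 to 1.17). For the library labelled KO HFD against WT HFD the ratios were 0.716 (0.659 to 0.777) and 0.671 (0.577 to 0.778).

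Some further classes held a few of the genes. *Stab1* measured 45.6, 54.6 and 38.1 CPM in endothelial-like cells of WT CD, WT HFD and the library labelled KO HFD. Dendritic-like cells held *Timd4* at 20.1, 76.9 and 47.1 CPM, from 15, 33 and 41 UMIs. These levels were above those of macrophages in WT HFD and the library labelled KO HFD and below in WT CD, and the ranges over the libraries overlapped. They also held *Cd163* at 44.1, 48.9 and 66.6 CPM and *Mrc1* at 126, 119 and 71.2 CPM. *Msr1* measured 32.0, 75.0 and 32.4 CPM in monocyte-like cells, from 3, 11 and 12 UMIs. Cells of macrophage clusters with under 5 C1q UMIs (63, 46 and 104 cells) held *Mrc1* at 205, 191 and 270 CPM and *Cd163* at 42.8, 19.6 and 39.8 CPM, with *Folr2* at 0.973, 12.0 and 2.45 CPM. In these low-C1q cells *Mrc1* was the highest of the 10 genes in each library. *Cbr2*, at 25.6 CPM in WT HFD (17 UMIs), was above *Cd163* there (13 UMIs).

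Within macrophages the genes ranged from *Mrc1*, found in most cells, to *Marco*, found in almost none. *Mrc1* measured 418 CPM (392 to 446) in WT CD, 497 CPM (476 to 519) in WT HFD and 517 CPM (496 to 539) in the library labelled KO HFD. It was found in 63.2%, 63.1% and 68.6% of macrophages thinned to 3000 UMIs each, so that depth was equal, and in 86.6%, 77.5% and 88.3% as deposited. Thinning left out 9, 13 and 14 shallower macrophages of the 3 libraries. *Folr2* measured 195 CPM (178 to 215), 290 CPM (274 to 306) and 259 CPM (244 to 274), in 31.9%, 39.5% and 38.0% of thinned cells (42.3%, 49.1% and 48.8% as deposited). *Lyve1* measured 148 CPM (132 to 165), 206 CPM (192 to 220) and 140 CPM (129 to 151), in 21.6%, 28.0% and 27.8% of thinned cells (28.9%, 34.4% and 34.1% as deposited). For *Folr2* the highest level was in WT HFD and the lowest in WT CD, and the intervals of the high-fat libraries overlapped slightly. For *Lyve1* WT HFD stood above both of the others, whose intervals overlapped.

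*Cd163* measured 103 CPM (90.4 to 117) in WT CD, 163 CPM (151 to 176) in WT HFD and 153 CPM (141 to 165) in the library labelled KO HFD. *Cd209f* measured 103 CPM (90.4 to 117), 140 CPM (129 to 152) and 151 CPM (140 to 163), and 16.8% of its UMIs in WT CD came from 1 cell. Both were lowest in WT CD, with overlapping intervals between the high-fat libraries. *Cbr2* measured 95.7 CPM (83.3 to 109), 160.5 CPM (149 to 173) and 133 CPM (122 to 144). *Stab1* measured 77.9 CPM (66.8 to 90.3), 124 CPM (113 to 135) and 94.7 CPM (85.8 to 104). These 2 genes were highest in WT HFD, lowest in WT CD and between these in the library labelled KO HFD, whose *Stab1* interval overlapped that of WT CD.

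*Timd4* measured 26.7 CPM (20.4 to 34.4) in WT CD, 61.3 CPM (54.1 to 69.3) in WT HFD and 20.2 CPM (16.2 to 24.9) in the library labelled KO HFD. *Msr1* measured 38.3 CPM (30.6 to 47.3), 87.4 CPM (78.7 to 96.7) and 45.7 CPM (39.6 to 52.5). Thinned, *Timd4* was found in 12 of 185, 42 of 382 and 23 of 353 macrophages (13.9%, 23.5% and 13.1% as deposited) and *Msr1* in 10.8%, 18.6% and 13.3% (24.2%, 38.2% and 28.3%). WT HFD stood alone for both in level, and the intervals of the other libraries overlapped. *Marco* measured 10.7, 7.10 and 0.230 CPM from 24, 30 and 1 UMIs. A single cell held 21 of the 24 UMIs in WT CD and another held 25 of the 30 in WT HFD, so its level is that of these cells.

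**Figure D2:**
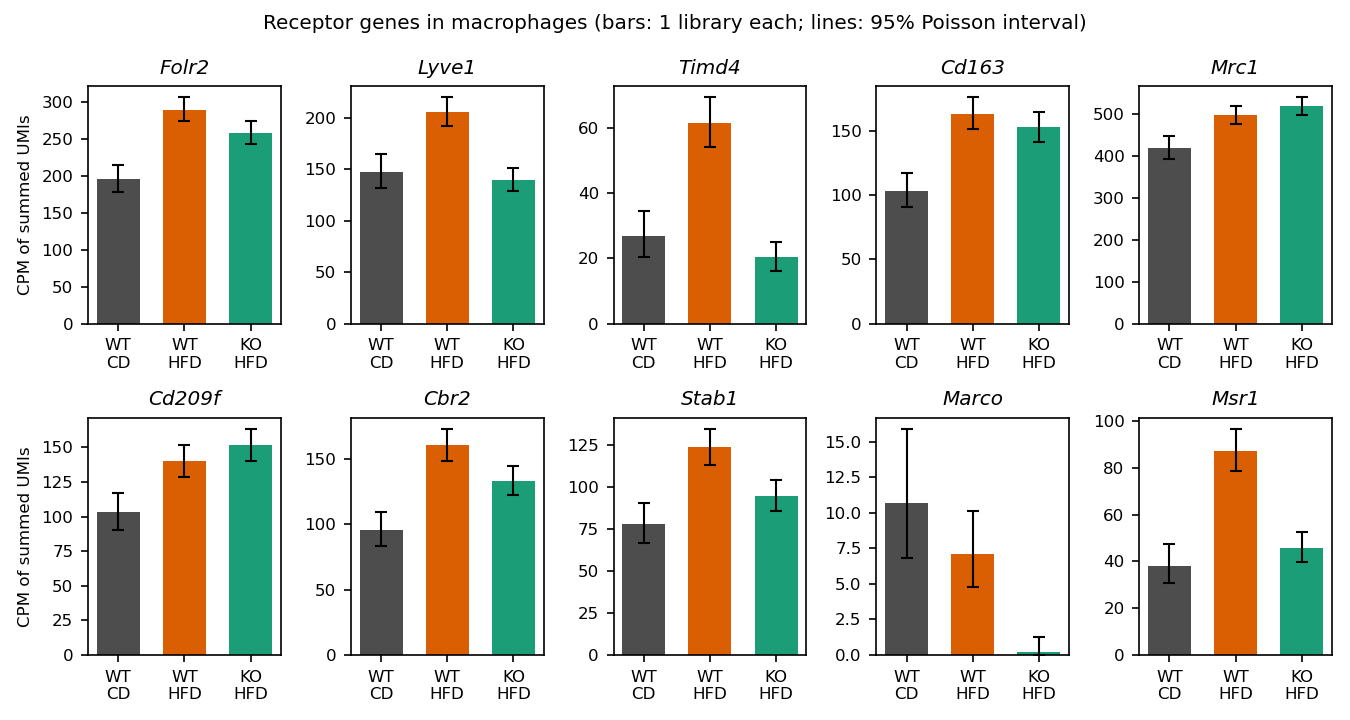
CPM of summed UMIs of each gene in macrophages, 1 bar per library, with lines for the 95% Poisson interval. *Timd4* and *Msr1* are highest in WT HFD at 61.3 and 87.4 CPM, and *Marco* rests on 55 UMIs.

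The first comparison asks how macrophages differed with the high-fat diet in WT mice. Of 9 genes that reached 20 CPM in 1 of the libraries compared, 5 were at least 1.5-fold higher in WT HFD and 0 were as much lower. Among all 5157 genes that reached 20 CPM, 5.7% were that much higher and 3.24% that much lower. The median log2 ratio was 0.66 over the 9 genes and 0.06 over all genes. *Timd4* was 2.30-fold higher (1.73 to 3.09) and *Msr1* 2.28-fold higher (1.80 to 2.92). *Cbr2* was 1.68-fold (1.44 to 1.96), *Stab1* 1.59-fold (1.33 to 1.89) and *Cd163* 1.58-fold higher (1.36 to 1.84). *Folr2*, at 1.48-fold (1.33 to 1.66), lay just under the threshold, and *Lyve1* at 1.39-fold, *Cd209f* at 1.35-fold and *Mrc1* at 1.19-fold lay below it. Over all cells of macrophage-named clusters *Folr2* (log2 ratio 0.94), *Lyve1* (0.82) and *Cd209f* (0.63) passed, as they did with the cavity-like subcluster described later left out (0.81, 0.72 and 0.68), and *Folr2* also passed with a C1q threshold of 3 UMIs (0.59). With macrophage subclusters weighted alike in both libraries, *Timd4* (log2 ratio 0.50), *Msr1* (0.46) and *Cbr2* (0.55) no longer passed, while *Folr2* (0.73) and *Cd209f* (0.95) did. With cells thinned to 3000 UMIs *Cbr2* (0.55) and *Stab1* (0.54) fell short. *Cd163* and *Stab1* fell short with the subclusters led by other cell types' genes, described later, left out. They also did so, as given above, with cells holding other cell types' markers left out. *Marco*, under 20 CPM in both, had a ratio of 0.665 (0.376 to 1.19), an interval that includes 1.

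The second comparison asks how the *Thbs1* genotype label went with these levels on the high-fat diet. It shares the WT HFD library with the first, so a low or high value there enters both. Of these 9 genes, 2 were at least 1.5-fold lower in the library labelled KO HFD and 0 were as much higher. Over 5108 genes 3.37% were that much lower and 2.27% that much higher. The median log2 ratio was -0.27 over the 9 genes and 0.02 over all genes. *Timd4* had a ratio of 0.330 (0.256 to 0.422) and *Msr1* one of 0.524 (0.438 to 0.624). *Lyve1* had a ratio of 0.678 (0.611 to 0.753), just short of the threshold, *Stab1* one of 0.766 and *Cbr2* one of 0.829. *Folr2* (0.892), *Cd163* (0.936), *Mrc1* (1.04) and *Cd209f* (1.08) were closest to 1. With subclusters weighted alike *Timd4* still passed (log2 ratio -1.12), *Msr1* did not (-0.32), and *Lyve1* (-0.69), *Cbr2* (-0.67) and *Stab1* (-0.82) did. *Lyve1* also passed with a C1q threshold of 3 UMIs (-0.60), with doublets left out (-0.59) and over the macrophage-named clusters (-0.81). *Stab1* passed over those clusters too. With the cavity-like subcluster left out, *Lyve1* and *Stab1* passed and *Msr1* did not. *Marco*, with 1 UMI against 30, had a ratio of 0.0324 with an interval from 0.000793 to 0.195. That interval takes UMIs as independent, while 25 of the 30 came from 1 cell, so it is too narrow.

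Macrophages were divided into 10 subclusters without using the 10 genes or the fixed lists, and named only where the fixed markers of a type were raised on average and detected. The resident-like subcluster (led by *Cd209g*, *Cd209d* and *Ccl8*, with *Cd209f*, *Lyve1* and *Cd163* among its 10 leading genes) held 48, 109 and 112 cells, or 24.7%, 27.6% and 30.5% of macrophages in WT CD, WT HFD and the library labelled KO HFD. The cavity-like subcluster (led by *Alox15*, with *Prg4* and *Serpinb2* among its leading genes) held 8, 53 and 14 cells, or 4.12% (1.80 to 7.96%), 13.4% (10.2 to 17.2%) and 3.81% (2.10 to 6.32%). Of the other subclusters, 2 were MHC class II-like (155 cells led by *Cxcl10* and *Ccl4*, with no MHC class II gene among the 10 leading genes, and 161 cells with *H2-Eb1* and *H2-Ab1* among them), 1 lipid-associated-like (35 cells) and 1 cycling-like (34 cells). Unnamed were a group of 147 cells with *Cd226* and *Dcstamp* among its leading genes and 3 small groups, 80 cells in all, led by FAP, B cell or satellite cell genes.

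Genes of the resident set were concentrated in the resident-like subcluster. It held 94.0%, 75.8% and 92.3% of macrophage *Cd209f* UMIs, 81.3%, 75.3% and 74.3% of *Lyve1* and 70.6%, 60.7% and 67.7% of *Folr2* in WT CD, WT HFD and the library labelled KO HFD. For *Mrc1* the shares were 41.2%, 43.8% and 45.8%. It was also found in the MHC class II-like cells at 293 to 586 CPM. The unnamed group with *Cd226* held 20.8%, 10.3% and 15.2% of its UMIs, at 304, 317 and 299 CPM. Cycling-like cells held *Mrc1* at 451, 588 and 401 CPM, from 4, 13 and 17 cells. In the resident-like subcluster *Folr2* measured 907, 993 and 993 CPM, *Mrc1* 1132, 1229 and 1344 CPM and *Cd163* 407, 588 and 570 CPM. The subcluster's clustering used genes of the same cells, so these contrasts with other subclusters are descriptions.

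**Figure D3:**
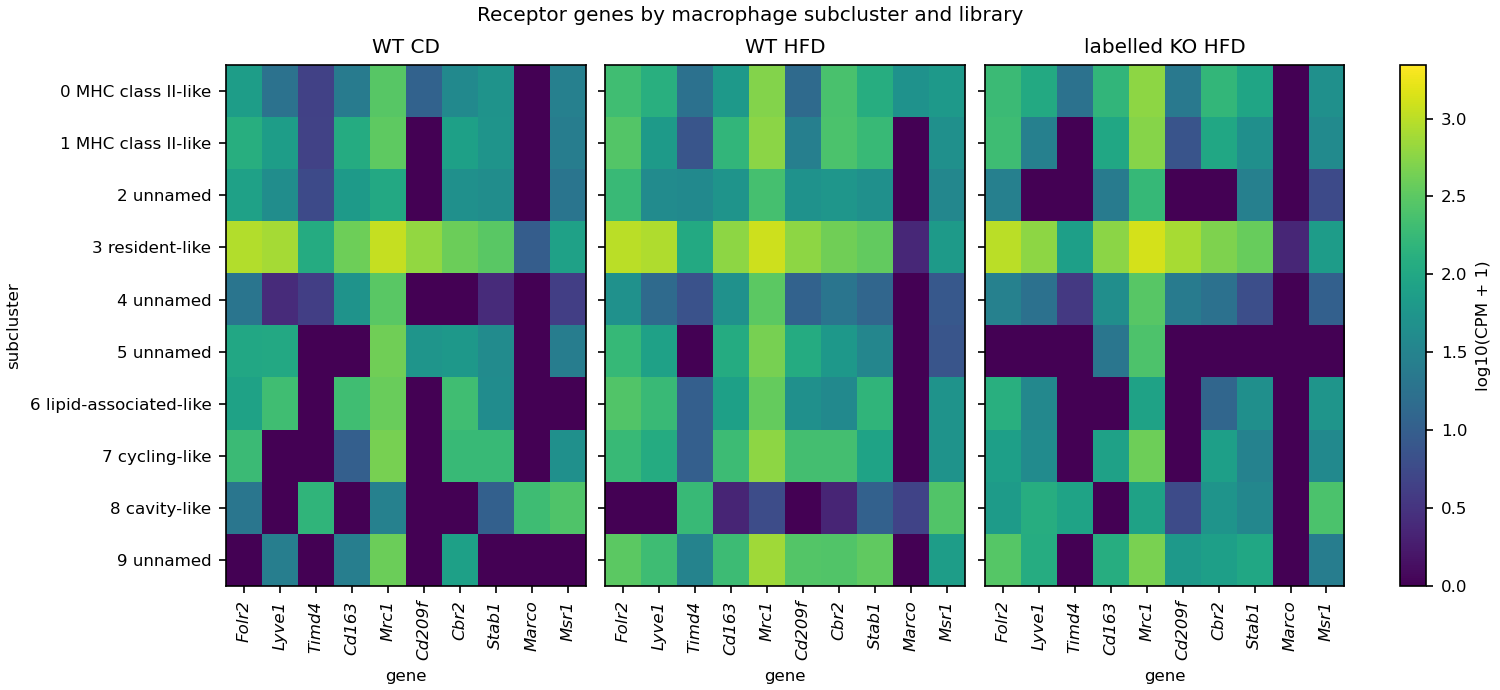
Level of each gene (columns) in the 10 macrophage subclusters (rows) in the 3 libraries, as log10(CPM + 1). The resident-like row is bright for *Folr2*, *Lyve1*, *Cd163*, *Mrc1*, *Cd209f*, *Cbr2* and *Stab1*, and the cavity-like row for *Timd4* and *Msr1*, with *Marco* in WT CD (201.9 CPM, 21 UMIs of 1 cell) and *Lyve1* in KO HFD (121 CPM, 2 cells). Rows of under 20 cells are set by few UMIs.

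The cavity-like subcluster held a different subset. In WT HFD its 53 cells measured 179 CPM for *Timd4* (39 of 53 cells) and 271 CPM for *Msr1* (every cell), but 0 for *Folr2*, *Lyve1* and *Cd209f* and 1.24 CPM for both *Cd163* and *Cbr2*. *Msr1* was likewise at 260 CPM in WT CD and 247 CPM in the library labelled KO HFD. *Timd4* was at 154 and 87.1 CPM there, from 8 and 14 cells. In the library labelled KO HFD these 14 cells also measured 121 CPM for *Lyve1*, 82.3 CPM for *Mrc1* and 67.8 CPM for *Folr2*, each from 2 cells. This subcluster held 56.0% of macrophage *Timd4* UMIs and 59.3% of *Msr1* UMIs in WT HFD, against 26.7% and 31.4% in WT CD and 20.5% and 25.6% in the library labelled KO HFD. *Timd4* UMIs thus lay mainly in these 2 subclusters. Of 168 macrophages with a *Timd4* UMI, 108 also had *Folr2* and 60 did not. Resident-like cells made up 66.7%, 39.8% and 68.8% of them in WT CD, WT HFD and the library labelled KO HFD, and cavity-like cells 14.8%, 41.9% and 16.7%.

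Within the resident-like subcluster alone, 0 of 9 genes passed 1.5-fold in either comparison. Shares over all genes were taken in all macrophages only, so this count has no such share beside it. *Marco*, with at most 3 UMIs per library there, was not evaluated. In the diet comparison all 9 log2 ratios were closer to 0 than over all macrophages. In the other comparison 6 were closer and *Cd209f*, *Mrc1* and *Lyve1* were farther from 0. For WT HFD against WT CD the largest log2 ratio was 0.53 (0.25 to 0.82) for *Cd163*, *Timd4* had -0.11 (-0.68 to 0.48) and *Msr1* -0.32 (-1.02 to 0.40). For the library labelled KO HFD against WT HFD, *Lyve1* had -0.57 (-0.75 to -0.40), close to its -0.56 over all macrophages, and *Cd209f* had 0.40 (0.23 to 0.58). *Timd4* had -0.46 (-0.97 to 0.05) there and *Msr1* 0.10 (-0.48 to 0.69). With cavity-like cells left out of all macrophages, *Timd4* had a log2 ratio of 0.70 in the diet comparison and -0.98 for the library labelled KO HFD against WT HFD. *Msr1* had 0.67 and -0.30. The direction of *Timd4* and *Msr1* for the diet therefore differed between all macrophages and the resident-like cells, whose intervals for these genes include 0. In the MHC class II-like subclusters some genes did pass. For the diet, *Folr2*, *Lyve1*, *Cbr2*, *Stab1* and *Mrc1* had 1.52, 2.88, 2.69, 1.23 and 0.86 in that led by *Cxcl10*. In that with *H2-Eb1* they had 1.16, -0.10, 1.67, 1.73 and 0.84. For the library labelled KO HFD against WT HFD, *Lyve1*, *Cbr2* and *Stab1* had -1.25, -1.37 and -1.97 in the latter. They fell short in the former (-0.24, -0.56 and -0.39). Differences between subclusters were not tested.

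**Figure D4:**
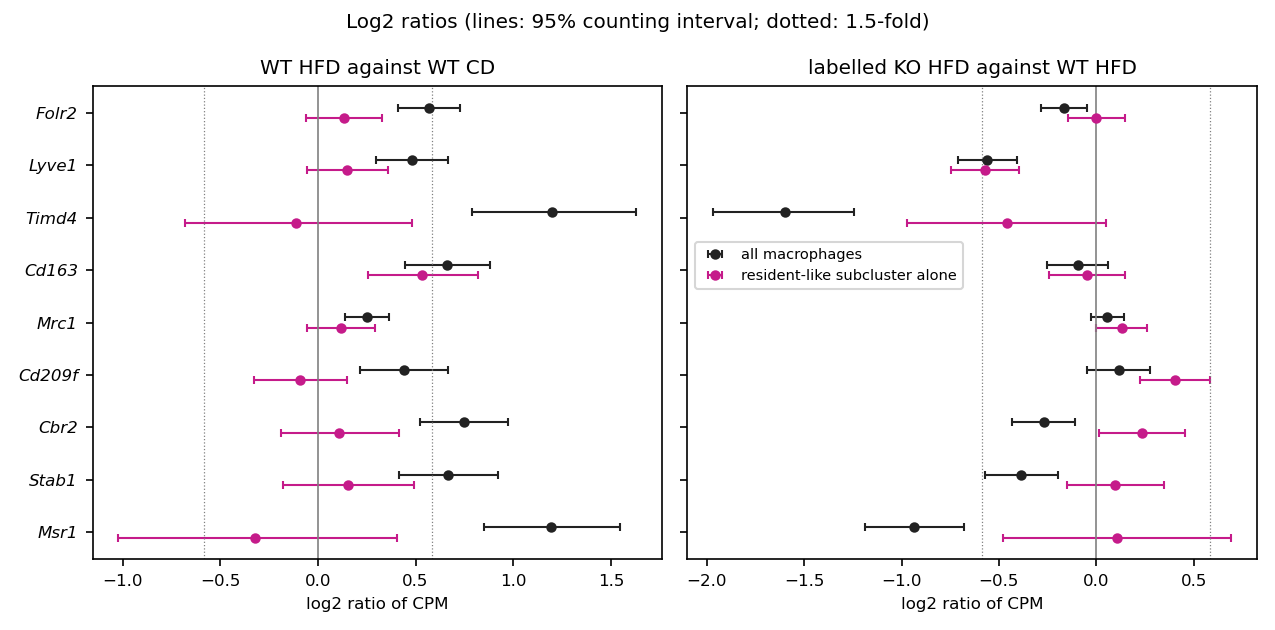
Log2 ratio of CPM (horizontal axis) for 9 genes (vertical axis, *Marco* left out) in all macrophages (black) and in the resident-like subcluster alone (magenta), with 95% counting intervals and dotted lines at 1.5-fold. *Timd4* moves from 1.20 to -0.11 and *Msr1* from 1.19 to -0.32 in the diet comparison, while *Lyve1* stays at -0.56 and -0.57 in the other.

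Several of the 10 genes were often found in the same cells, while many macrophages held few of them. Of 920 macrophages thinned to 3000 UMIs, 177 (19.2%) had none of the 10 and 372 (40.4%) had 1 or 2. A further 220 (23.9%) had 5 or more, and the median was 2. The share with 5 or more was 18.4% (13.1 to 24.7%) in WT CD, 25.4% (21.1 to 30.1%) in WT HFD and 25.2% (20.8 to 30.1%) in the library labelled KO HFD. For each pair the share of cells with both was set beside the product of the single shares. Of 36 pairs without *Marco*, 28 exceeded the product in all 3 libraries. No count over pairs of other genes stands beside this one, so it describes these genes only. *Folr2* and *Lyve1* were found together in 18.4%, 25.1% and 22.4% of macrophages, 2.67, 2.27 and 2.12 times the product. *Lyve1* was found in 57.6%, 63.6% and 59.0% of cells with *Folr2* and in 4.76%, 4.76% and 8.68% of those without. *Lyve1* and *Cd209f* exceeded the product 3.89, 2.87 and 2.65 times. Cells are not replicates, and Pearson's r of log counts for *Folr2* and *Lyve1* was 0.62, 0.64 and 0.56 over 185, 382 and 353 cells of equal depth.

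*Msr1* stood outside this set. Only 1 of its 8 pairs, that with *Timd4*, exceeded the product in all 3 libraries (3.08, 1.67 and 1.63 times, from 4, 13 and 5 cells). Of the 28 pairs without *Msr1*, 27 did, the exception being *Timd4* with *Mrc1*. *Folr2* and *Msr1* exceeded the product 2.04 and 1.40 times in WT CD and the library labelled KO HFD, and in WT HFD they reached 0.820 of it. WT HFD was also the library with the most cavity-like cells.

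**Figure D5:**
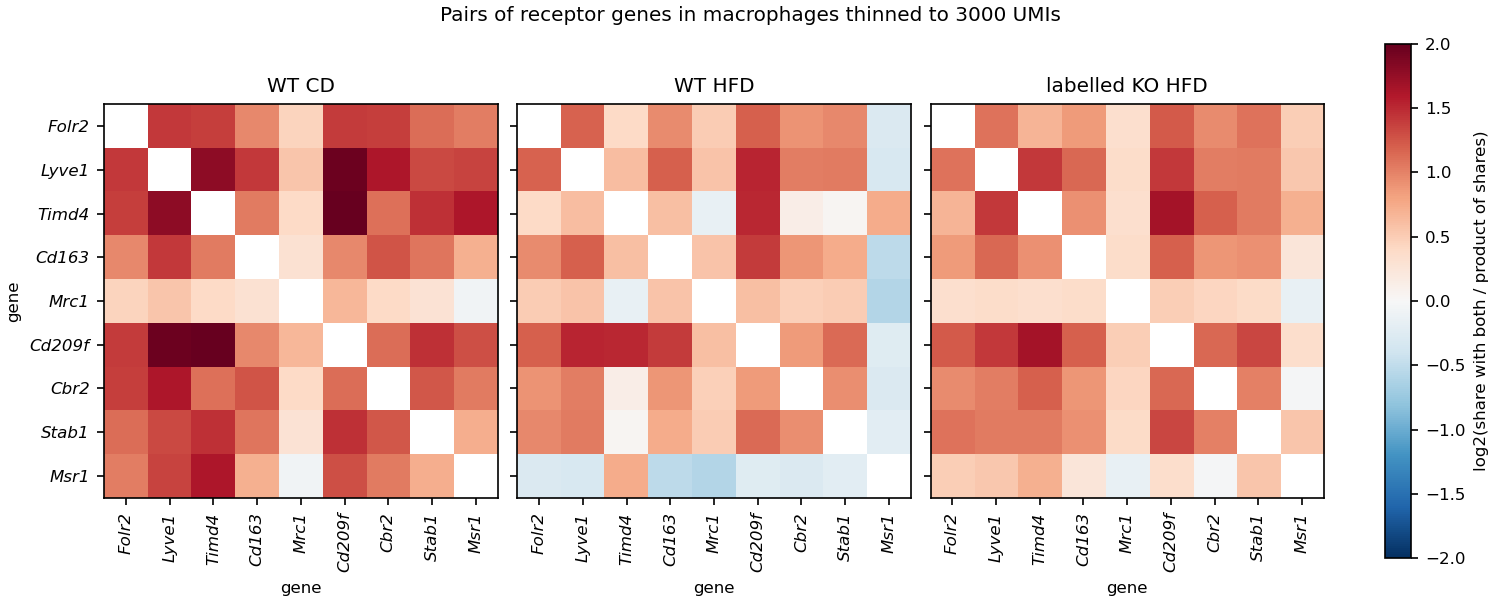
Log2 of the share of macrophages with both genes over the product of their single shares, for 9 genes on both axes, in each library thinned to 3000 UMIs, with colours capped at 2 either way. Most squares are red (above the product), and the *Msr1* row in WT HFD is blue for 7 of its 8 pairs.

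*Ccr2* encodes the chemokine receptor of monocyte-derived cells. In each library, every gene but *Mrc1* and the rare *Marco* was found in a smaller share of thinned macrophages with *Ccr2* than without. Of thinned macrophages with a *Ccr2* UMI, 12.6%, 21.3% and 17.8% had *Folr2* in WT CD, WT HFD and the library labelled KO HFD, against 52.2%, 50.2% and 54.1% of those without. For *Lyve1* the shares were 6.32%, 11.3% and 7.01% with *Ccr2* and 37.8%, 37.8% and 44.4% without. For *Mrc1* the shares were 61.1%, 64.5% and 63.7% with *Ccr2* and 65.6%, 62.2% and 72.4% without. Its mean was lower with *Ccr2* in each library, at 1158, 1539 and 1471 UMIs per 1000 thinned cells against 2033, 2170 and 2541 without.

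Of 4826 other genes with at least 20 CPM in macrophages, *Selenop*, a secreted selenium carrier, followed the summed UMIs of the 10 genes best (mean within-library Pearson's r 0.65 over 920 thinned cells). *Gas6* (0.60), a ligand of the TAM receptors that clear dying cells, *F13a1* (0.59), a coagulation factor subunit, and *Maf* (0.59), a transcription factor, came next. *Fcgrt*, *Cd209g*, *Dab2*, *Pf4* and *Apoe* were also among the 10 highest, at 0.55, 0.55, 0.53, 0.52 and 0.51. The lowest were *Rplp0* (-0.51), *Cd52* (-0.47), *Rpl13* (-0.46), *Fn1* (-0.44) and *Rpsa* (-0.44), which include 3 ribosomal protein genes. Taken singly, *Folr2* was nearest to *Selenop* (0.54) and *F13a1* (0.49), *Mrc1* to the same genes (0.50 and 0.47) and *Lyve1* to *F13a1* (0.48) and *Fcgrt* (0.46). *Cd163* was nearest to *Selenop* and *Maf* (both 0.43), *Cbr2* to *Maf* (0.42) and *Selenop* (0.41), and *Stab1* to *Selenop* (0.41) and *Gas6* (0.39). *Cd209f* was nearest to its relatives *Cd209g* (0.71) and *Cd209d* (0.59). *Timd4* was nearest to *Vsig4* (0.31) and *Cd209d* (0.28) and *Msr1* to *Prg4* (0.33) and *Alox15* (0.32), all weak. For *Marco*, *Cd5l* (0.28) and *Fcna* (0.18) rest on the few cells that held it. The points of each r share a library and a depth, so they are descriptions.

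Of a list of 40 other uptake receptors, 39 were counted and 25 reached 20 CPM in the diet comparison, with 5 higher and 1 lower in WT HFD by at least 1.5-fold (median log2 ratio 0.25), where 5.7% of all genes were higher and 3.24% lower (median 0.06). *Vsig4*, a complement receptor, measured 19.1 CPM in WT CD and 39.5 CPM in WT HFD. *Cd36*, a fatty acid and lipoprotein receptor, measured 203 and 348 CPM. *Cd209a*, a lectin also known from dendritic cells, measured 31.2 and 12.5 CPM. *Itgam*, *Cxcl16* and *Mertk* were the other 3 past the threshold, with log2 ratios of 0.65, 0.62 and 0.60. For the library labelled KO HFD against WT HFD, 1 of 23 was higher (*Itgax*, log2 ratio 1.38) and 1 lower (*Clec4n*, -0.68), each under 20 CPM in the lower library, with a median of -0.10, where 2.27% of all genes were higher and 3.37% lower (median 0.02).

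The counts that follow stand beside the same shares over all genes, 5.7% higher and 3.24% lower for the diet and 2.27% higher and 3.37% lower for the other comparison. Of 20 other genes of resident macrophages, 8 were higher and 1 lower in WT HFD than in WT CD (median log2 ratio 0.44). *Cd5l*, a secreted scavenger protein, measured 16.9 CPM in WT CD and 133 CPM in WT HFD (log2 ratio 2.98), followed by *C4b* at 1.48, *Ednrb* at 1.24, *Igf1* at 0.92 and *Pf4* at 0.85, while *Ccl8* had -1.27. For the library labelled KO HFD against WT HFD, 5 were lower and 1 higher (median -0.34), with *Cd5l* at -2.17, *Ednrb* at -1.47, *C4b* at -1.33, *Fcna* at -1.14, *Ltc4s* at -0.83 and *Ccl12* at 0.73. *Cd5l* was also among the genes leading the cavity-like subcluster. Of 12 lipid-associated genes, 8 were higher in WT HFD than in WT CD and 4 were higher and 1 lower in the library labelled KO HFD than in WT HFD (median 0.35). *Gpnmb* measured 1.34, 22.0 and 88.9 CPM and *Spp1* 6.68, 32.2 and 121 CPM in WT CD, WT HFD and the library labelled KO HFD. In the diet comparison *Cd5l*, *Gpnmb* and *Spp1*, like *Vsig4* and *Cd209a* above, reached 20 CPM only in the library where they were high. *Cd9* (1.62), *Plin2* (1.28) and *Fabp5* (1.07) were also higher in the first, and *Lgals3* (1.07) and *Lpl* (0.95) in the second. *Fabp4*, a fatty acid carrier, had 1.86 and -1.68.

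The 7 MHC class II genes had 0 past the threshold in either comparison, with medians of -0.50 and 0.18. *H2-Eb1* measured 6818, 4731 and 5319 CPM in WT CD, WT HFD and the library labelled KO HFD. Of 6 monocyte genes tested for the diet, 2 were lower in WT HFD (*Plac8* with a log2 ratio of -1.92 and *Ms4a4c*, at 21.8 against 11.1 CPM). *Ms4a4c* was tested only through WT CD, and of the other 5 genes, tested again in the second comparison, 0 passed. Of 19 lineage regulators and growth factor receptors, 14 reached 20 CPM, with 0 past the threshold for the diet and 1 for the other comparison (*Csf2rb*, 0.60). *Csf1r* measured 407, 413 and 402 CPM. Of 7 folate and heme handling genes, 1 was higher in each comparison, *Blvrb* (0.72) in the first and *Hmox1* (0.72), which breaks down heme, in the second. Counts of 1 in lists of this size rest on a single gene.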

How the data were processed

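Per the submitters' processing notes, the authors counted reads with Cell Ranger 6.1.1 on mm10, while the file header names 6.1.0. They deposited whole-number UMI counts per gene and cell, without normalization, and every barcode was kept. The members and lists were chosen with earlier results of these data known. Analysis used Python 3.11.15 with scanpy 1.11.5, and edgeR 4.0.16 for TMM scaling only. Cells were clustered on 2000 variable genes, 30 components and 15 neighbours (Leiden resolution 1), and macrophages on 20 components at 0.6. Names came from fixed marker sets whose mean log2 ratio reached 1 (0.5 for subclusters), with 3 markers in at least 10% of cells. These thresholds were set while the clusters were examined. A cluster led by mitochondrial genes and a macrophage subcluster led by B cell genes reached them but were left unnamed. Scrublet called 1.26%, 1.09% and 1.33% of barcodes, which were kept. CPM was a gene's summed UMIs over those of all genes in the same class and library. UMI counts at the 3′ end do not scale with gene length. Sums carry exact Poisson intervals, shares exact Clopper-Pearson intervals and ratios exact conditional intervals. A count of 0 allows up to 3 counts. A gene passed at 1.5-fold. Fixed-list genes past it were named, at most 6 per list and comparison, as were the 10 highest and 5 lowest correlates of the members' UMIs and the 2 nearest genes of each member. Of these, 1 is not reported here. Ratios and thinning were tested on simulated data. Groups of 1 library allow no test between groups.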

Additional observations from a re-analysis of the deposited data

Results flagged for a closer look

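*Cd163* differed between kinds of cells in the same comparison by more than 1.5-fold in opposite directions, which was looked for in groups of at least 20 cells per library and 20 UMIs over both libraries, limits chosen after seeing the data. These differences between cell groups were not tested, since each group has 1 library. For WT HFD against WT CD, *Cd163* had a log2 ratio of 0.66 over all macrophages (163 against 103 CPM) and 1.38 in the MHC class II-like subcluster led by *Cxcl10* and *Ccl4* (62.0 against 23.9 CPM, from 33 and 7 UMIs). In cells of macrophage clusters with under 5 C1q UMIs it had -1.13 (19.6 against 42.8 CPM, from 13 and 44 UMIs). For the library labelled KO HFD against WT HFD, it had 1.02 in those low-C1q cells (65 and 13 UMIs) and 1.35 in the subcluster led by *Cxcl10* (158 against 62.0 CPM). In the other MHC class II-like subcluster, which has *H2-Eb1* and *H2-Ab1* among its 10 leading genes, it had -0.72 (96.4 against 159 CPM, from 45 and 72 UMIs). The low-C1q cells are set by a threshold on the same cells and the subclusters by their other genes, and what part these choices have in the differences was not tested.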

How the results depend on the processing

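The count of genes past 1.5-fold (*Marco* included) was 6 in the diet comparison (the first) and 3 in that of the library labelled KO HFD with WT HFD (the second). At 2-fold the first became 2. With all cells of macrophage-named clusters the second became 5, as it did with subclusters weighted alike. In the resident-like subcluster alone, added after seeing the data, both became 0. For the other alternatives the first count was within 1.5 times the main value, and so was the second. These were C1q thresholds of 3 and 10 UMIs, genes under 20 CPM not counted, doublets left out, cells thinned to 3000 UMIs, TMM scaling, cells with other cell types' markers left out and, added after seeing the data, cavity-like cells or the subclusters led by other cell types' genes left out. The genes were not always the same, and both directions were counted together. Among these alternatives the first count ran from 4, as with cells thinned to 3000 UMIs, to 9 with cavity-like cells left out. The value of 9 lies at the limit of 1.5 times. In the resident-like subcluster alone, the sign turned, among genes past the threshold, for *Timd4* (-0.11) and *Msr1* (-0.32) in the first comparison and *Msr1* (0.10) in the second, and among the others for *Cd209f* (-0.09) in the first and *Cbr2* (0.23) and *Stab1* (0.10) in the second. *Marco* turned to 2.31 with cells of other markers left out and to 2.50 without cavity-like cells. Of the log2 ratios under alternatives, 152 stayed within the counting interval of the main value, 61 left it and 5 that had passed the threshold turned. Leiden resolutions of 0.5 and 2 moved 8 of the levels in other classes and left 40 within their counting interval. Of the shares of positive cells, 25 moved when cells were thinned to 3000 UMIs, and 65 under that or the other C1q thresholds did not. The 28 pairs above their product were 28 at 5000 UMIs and 30 as deposited. The number of cells limits *Marco* (7 cells) and the cavity-like values of WT CD (8 cells) and the library labelled KO HFD (14 cells). No paired analysis was possible because each group was 1 library.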
